A study of Mus musculus with 63 samples.

Results

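The circadian clock genes examined here are 10 transcripts, Nr1d1, Nr1d2, Dbp, Tef, Per1, Per2, Per3, Npas2, Cry1 and Ciart, out of 56748 genes in the count table. They were chosen by name because their levels had been seen to differ between libraries of the same group, so their spread and their correlations within groups are given as descriptions with no test, and the tests below are of differences between groups. Each symbol matched 1 Ensembl identifier, and all 10 passed the filter on low counts that left 22147 genes. The libraries are polyadenylated RNA of peritoneal macrophages, drawn 72 hours after an injection of 3% thioglycollate, an irritant that recruits macrophages to the peritoneum, and then kept in culture. The study asked how the R1441C change in Lrrk2, a kinase gene linked to inherited Parkinson's disease, alters myeloid cells by sex and age. Knock-in mice carry R1441C in their own Lrrk2 gene and wild-type mice are B6, with no transgene or Cre driver.

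The 63 libraries fall into 16 groups by genotype, sex, age label and treatment label. Libraries labelled old are from animals of 18 to 21 months and those labelled young from animals of 2 to 3 months. The treatment label is interferon-gamma (IFN-γ, 100 U for 18 hours) or untreated, which per the protocol is water as vehicle. With the old label there were 5 IFN-γ and 5 untreated knock-in females, 5 IFN-γ and 3 untreated knock-in males, 5 IFN-γ and 5 untreated wild-type females, and 5 IFN-γ and 3 untreated wild-type males. With the young label there were 2 IFN-γ and 5 untreated knock-in females, 3 of each among knock-in males, 3 of each among wild-type females, and 5 IFN-γ and 3 untreated wild-type males. The hour of day at which animals were sampled was not found in the sources used here.

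The circadian clock is a loop of transcription factors that most cells carry. A dimer of CLOCK, or its relative NPAS2, with ARNTL (BMAL1) binds E-box elements and switches on the period genes Per1, Per2 and Per3, the cryptochromes, Nr1d1 and Nr1d2, Dbp, Tef and Ciart. The period and cryptochrome proteins then hold that dimer back, and the nuclear receptors NR1D1 and NR1D2 (REV-ERBα and REV-ERBβ) repress Arntl and other genes, including inflammatory genes in macrophages, while DBP and TEF act through D-box elements.

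The labels were checked first, because several libraries went against them. All 36 libraries labelled old had at least 4372 CPM (counts per 1e6 counts, scaled with TMM factors) of Gbp2, an IFN-γ response gene, against at most 883 CPM in the 27 labelled young. By treatment label Gbp2 ran from 16.7 to 6663 CPM in the 33 labelled IFN-γ and from 13.5 to 7510 CPM in the 30 untreated. All 15 tested IFN-γ response genes were higher with the old label in both genotypes. By treatment label the Gbp2 ranges overlap, and 13 of the 15 genes rose in wild-type libraries and 0 in knock-in. Age and interferon cannot be told apart in the age-label results below. For 3 knock-in old untreated males the treatment characteristic reads IFN-γ while title and description say untreated, and they were grouped by title and description. Xist, a transcript of the inactive X chromosome, was at 1.69 and 1.55 CPM in libraries 4 and 5 of the knock-in old IFN-γ females and at 120 CPM or more in all others labelled female. Wild-type old IFN-γ female 2 and wild-type young IFN-γ female 1 stood apart in the 8 markers of resident peritoneal macrophages, whose sums were 19146 and 15470 CPM, against 1550 to 2746 CPM in the other libraries of their groups. The 8 general macrophage markers summed to between 18781 and 38530 CPM in every library. Libraries held 73.6 to 106.6 M counts (median 98.2 M). Libraries of one group differed by between 2.59 and 35.1 times the sampling noise of counting, and 18 pairs within groups differed by less than any 2 libraries of different groups did (lowest ratio 4.645). Linked through these pairs, 32 libraries form 14 sets, called near-identical here although some pairs inside a set differed by up to 5.15 times, so p-values measure the spread between these libraries, which may in part be technical.

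The regions just upstream of 4 of the genes are shown because they hold the elements named above. RefSeq's promoter table (build GRCm38.p6, an earlier build than the authors') held 9 of the 10 genes, and Per2 is named only. The 250 bases before each start were searched on both strands for the E-box CACGTG, the E′-box CACGTT, the D-box TTANGTAA and the ROR element (an A, any 2 bases, a T, any base, then GGTCA), none of which overlapped another. Matches are in capitals, each line runs 5′ to 3′ on the gene's strand, and a match on the other strand appears as its complement (AACGTG for the E′-box).

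Ciart chr3:95882229-95882478 minus strand: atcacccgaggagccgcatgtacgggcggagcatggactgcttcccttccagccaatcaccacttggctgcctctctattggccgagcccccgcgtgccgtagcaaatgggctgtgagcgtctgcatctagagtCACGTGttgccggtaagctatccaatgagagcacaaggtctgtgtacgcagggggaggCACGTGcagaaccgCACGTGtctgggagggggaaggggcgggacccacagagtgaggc

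Per3 chr4:151044666-151044915 minus strand: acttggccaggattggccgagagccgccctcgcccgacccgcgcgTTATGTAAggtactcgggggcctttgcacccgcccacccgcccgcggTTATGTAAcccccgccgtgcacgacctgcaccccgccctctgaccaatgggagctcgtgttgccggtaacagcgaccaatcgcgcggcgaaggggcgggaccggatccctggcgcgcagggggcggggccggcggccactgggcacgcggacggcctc

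Cry1 chr10:85185055-85185304 minus strand: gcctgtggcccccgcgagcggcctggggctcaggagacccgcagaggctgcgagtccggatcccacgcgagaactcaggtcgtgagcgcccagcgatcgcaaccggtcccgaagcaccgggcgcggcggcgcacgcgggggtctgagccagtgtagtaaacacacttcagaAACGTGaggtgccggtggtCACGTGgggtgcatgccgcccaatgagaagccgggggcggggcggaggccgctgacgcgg

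Nr1d1 chr11:98775378-98775627 minus strand: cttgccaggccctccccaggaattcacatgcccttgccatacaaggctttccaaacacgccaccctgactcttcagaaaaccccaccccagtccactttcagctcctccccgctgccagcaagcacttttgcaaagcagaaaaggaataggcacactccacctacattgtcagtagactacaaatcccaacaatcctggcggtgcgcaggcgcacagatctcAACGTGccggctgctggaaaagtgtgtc

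Ciart, which encodes a repressor of the ARNTL dimer, had 3 E-boxes, and 3 or more were found in 20 of 32851 promoters (0.0609%). Per3 had 2 D-boxes, as had 24 promoters or 0.0731% with 2 or more. Cry1 had an E-box and an E′-box, Nr1d1 an E′-box, and Per1 and Tef an E-box. The E-box was in 6.02% of all promoters, the E′-box in 3.85%, the D-box in 2.06% and the ROR element in 2.04%, the last in none of the 9. A match describes letters only, and no binding was measured here.

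Levels can be compared between genes on the FPKM scale (fragments scaled to transcript length and depth), which the authors derived from the same counts. Median FPKM over the 63 libraries was highest for Nr1d2 at 4.48 (range 2.26 to 10.8). Tef at 3.82 (2.67 to 7.001), Per1 at 3.79 (2.96 to 6.23) and Cry1 at 3.63 (2.37 to 5.19) followed, and these neighbours overlapped over most of their ranges. Dbp lay at 1.61 (0.989 to 5.14). A lower set held Nr1d1 at 0.677, Per2 at 0.646, Ciart at 0.515 and Per3 at 0.508, whose ranges also overlapped, and Npas2 was lowest at 0.165 (0.0167 to 1.11). Npas2 rested on as few as 8 reads in a library, and Nr1d2 on at least 1218. The plot of all libraries shows the levels by group.

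**Figure D1:**
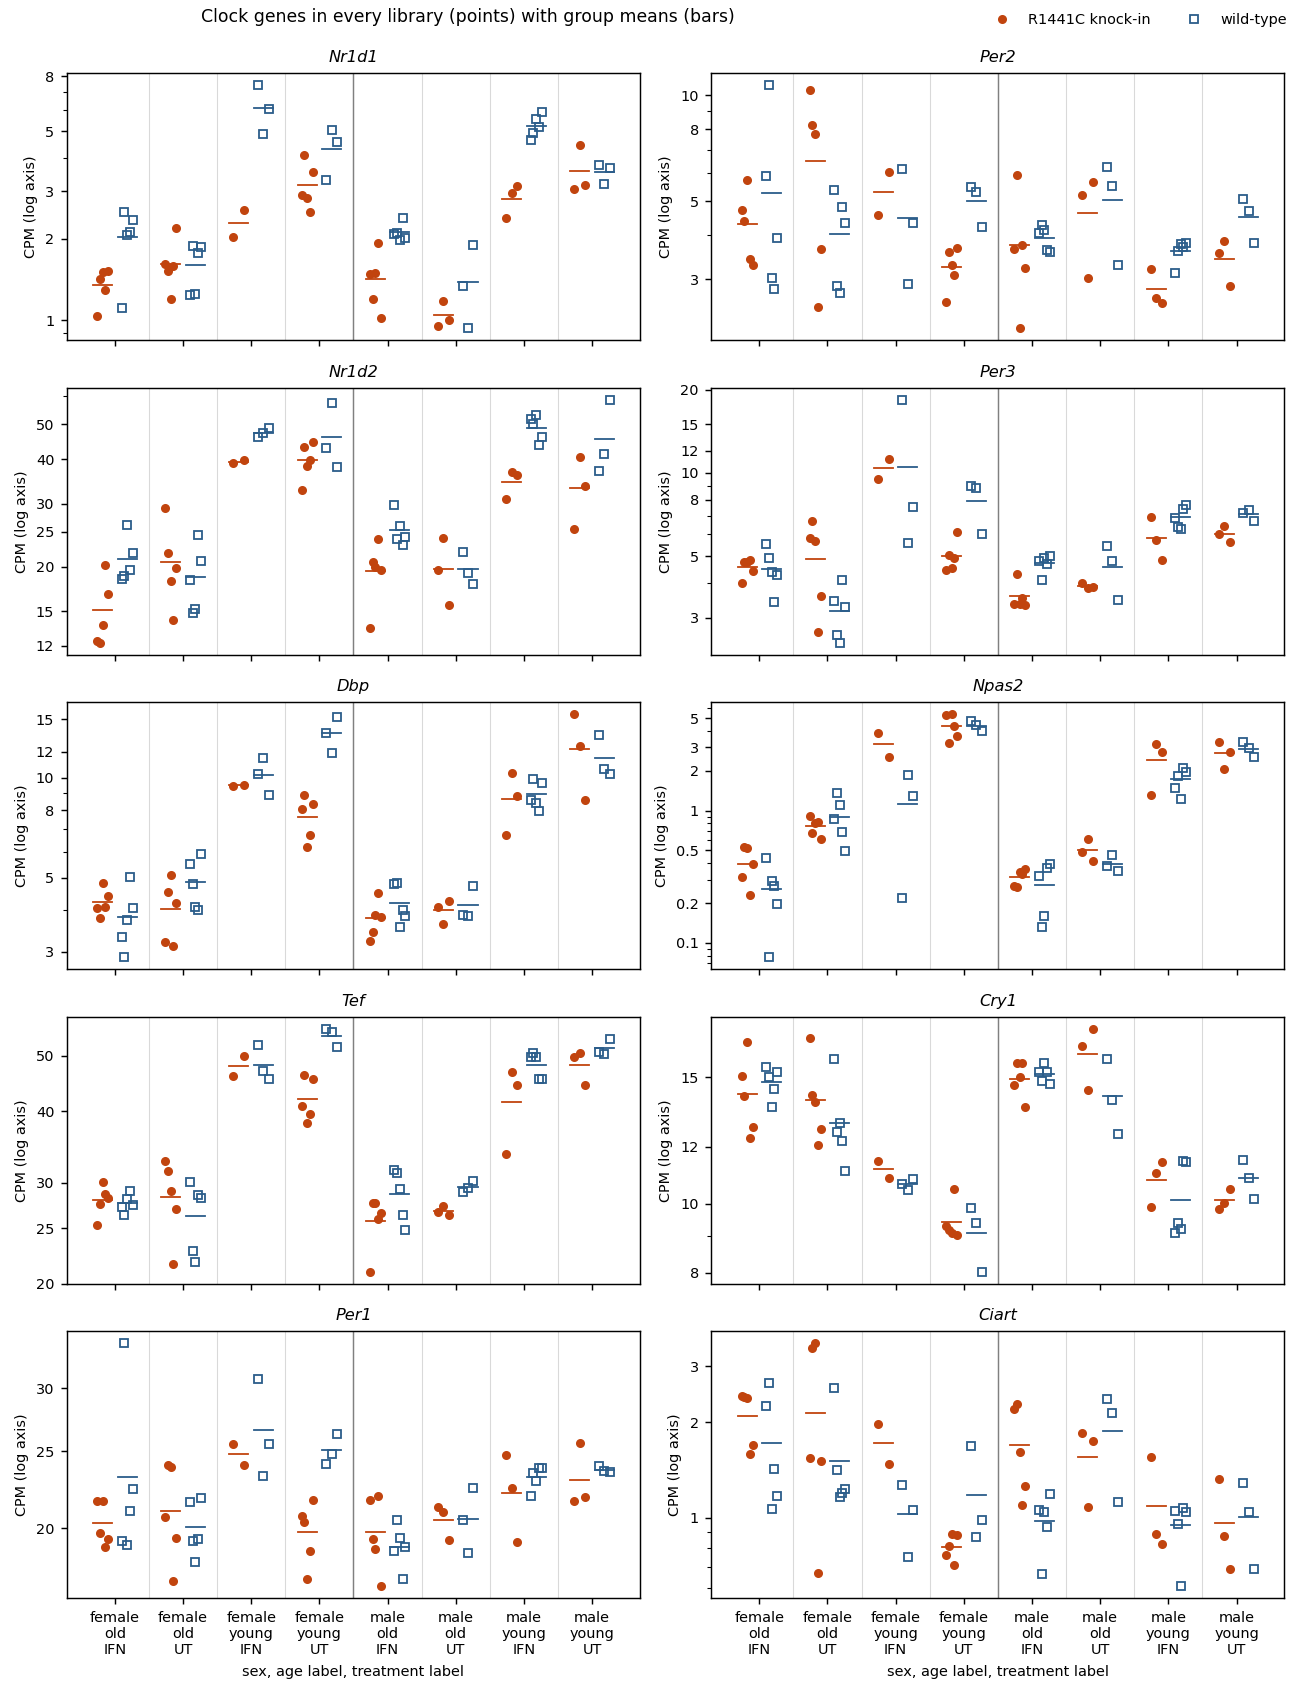
Level of each clock gene in CPM (log axis) in every library, by sex, age label and treatment label, with filled circles for R1441C knock-in, open squares for wild-type and bars for group means. Nr1d2, Dbp and Tef are lower and Cry1 is mostly higher in libraries labelled old, while Per2 and Ciart differ several-fold inside some groups, as in the 5 knock-in old untreated females.

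Npas2, Ciart and Per2 varied most within groups. The pooled SD of log2 CPM within groups was 0.56 for Npas2, 0.49 for Ciart and 0.46 for Per2, against SDs from counting alone of 0.20, 0.13 and 0.07 for these 3 genes. It was 0.31 for Per3, 0.29 for Nr1d1, 0.26 for Nr1d2, 0.23 for Dbp, 0.16 for Per1, 0.14 for Tef and 0.13 for Cry1. Set beside the 1000 genes nearest in level, the percentile of within-group SD was 90.0 for Nr1d2, 86.8 for Per2, 78.5 for Npas2, 76.4 for Per3 and 73.1 for Ciart. It was 63 for Per1, 61.8 for Dbp, 53.9 for Tef, 47.9 for Nr1d1 and 35.4 for Cry1. Among near-identical libraries the SD of Per2 was 0.18 and that of Ciart 0.22. The medians there of the 1000 genes nearest in level were 0.14 for Per2 and 0.23 for Ciart. These sets were formed from libraries that differ little over all genes, so a lower SD inside them follows from how they were picked. The median SD of all tested genes was 0.34 within groups and 0.197 within these sets.

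**Figure D2:**
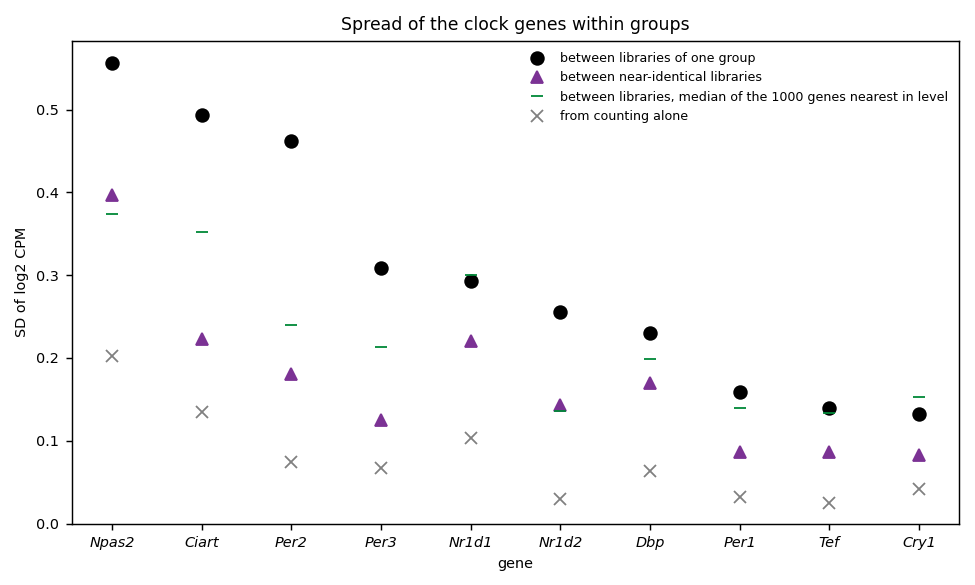
SD of log2 CPM of each clock gene (y axis) between libraries of one group, between near-identical libraries, as the median of the 1000 genes nearest in level, and as counting alone would give. Npas2, Ciart and Per2 have the highest SD between libraries (0.56, 0.49 and 0.46), and counting gives at most 0.20 for any of the 10.

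Per2 and Ciart had their widest ratio of highest to lowest library in the 5 knock-in old untreated females. Per2, whose protein restrains the ARNTL dimer, had 10.4, 8.24, 7.78, 2.51 and 3.65 CPM in libraries 1 to 5 of that group, a ratio of 4.13 between highest and lowest. Per3, its paralogue, had 5.82, 6.69, 5.69, 2.65 and 3.60 CPM, and Ciart had 1.54, 3.43, 3.55, 0.668 and 1.51 CPM. Libraries 1 to 3 were above 4 and 5 in both period genes, and libraries 2 and 3 were highest in Ciart. The 12 markers of mesothelial cells and fibroblasts, all tested, summed to 149, 59.4, 61.2, 318 and 401 CPM in the same libraries, lowest where Ciart was highest. Markers of macrophages in general summed to 20162, 18781, 19520, 26982 and 27753 CPM. The part of these cells in the split was not tested.

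Similar contrasts ran through other groups of females. In knock-in old IFN-γ females Ciart had 2.41, 2.40, 2.39, 1.59 and 1.70 CPM, with mesothelial and fibroblast sums of 68.2, 64.6, 72.4, 170 and 178 CPM, and the 2 low libraries are those with little Xist. In wild-type old IFN-γ females Per2 had 5.88, 10.7, 3.02, 2.81 and 3.92 CPM and Per1, the family's most abundant member, had 19.3, 34.2, 19.0, 21.0 and 22.4 CPM, so that library 2, high in resident macrophage markers, led both. Of the 3 wild-type young IFN-γ females, libraries 1, 2 and 5, Per3 had 18.4, 5.59 and 7.52 CPM. Npas2, which can stand in for CLOCK, had 0.220, 1.86 and 1.29 CPM there, a ratio of 8.44, and library 1 was again the one apart. Over the 15 groups of 3 or more libraries, the library highest in Per2 was the lowest in mesothelial and fibroblast markers in 7 and the highest in 1, and for Ciart the counts were likewise 7 and 1. For Nr1d1 they were 2 and 8. Other marker lists moved too: the library highest in Per2 was the lowest in resident peritoneal macrophage markers in 1 group and the highest in 8, and for Ciart these counts were 0 and 7. For B cell markers they were 2 and 8 for Per2, and 4 and 6 for Ciart. For general macrophage markers they were 6 and 3 for Per2 and 5 and 2 for Ciart. Wider counts for these markers were those of Per3 (9 and 2), Nr1d2 (7 and 1) and Dbp (0 and 9). None of these counts was compared with what would arise by chance. Upk3b, a mesothelial marker, was at 0 in some libraries. RNA was taken from whole cultures, in which fewer cells of a type and less RNA per cell cannot be told apart.

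**Figure D3:**
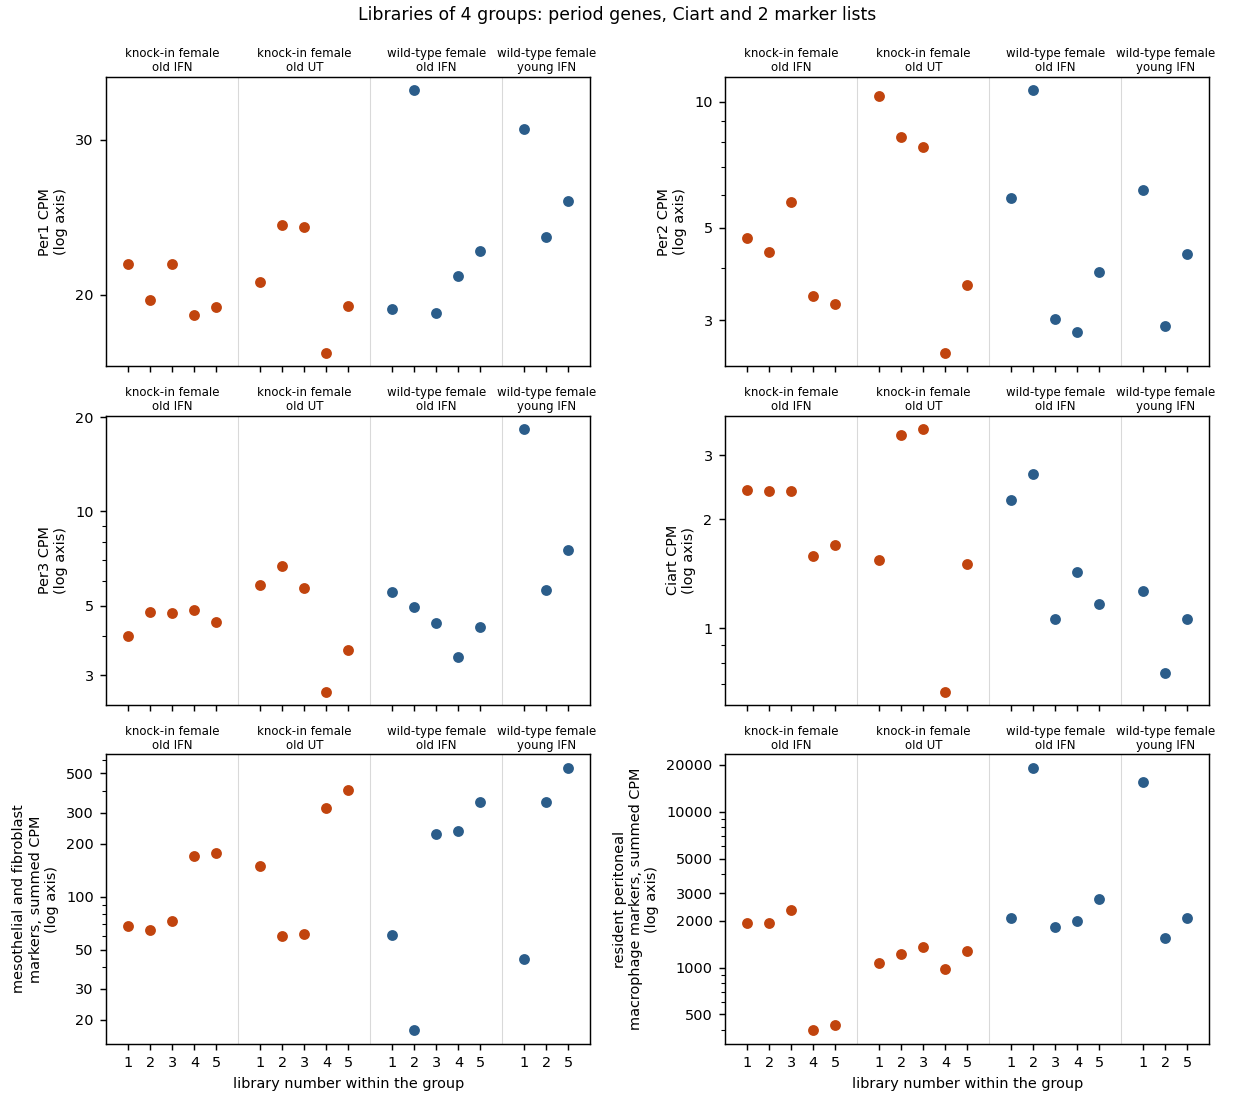
CPM (log axes) of Per1, Per2, Per3 and Ciart and summed CPM of 2 marker lists in each library of 4 groups of females, by library number. Knock-in old untreated libraries 4 and 5 are low in Per2 (2.51 and 3.65 CPM) and high in mesothelial and fibroblast markers, and wild-type old IFN-γ library 2 and young IFN-γ library 1 are high in resident macrophage markers.

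After group means were removed, several of the genes varied together, given as a description over 63 libraries that share depth scaling and, in part, near-identical sets. Per2 went with Per3 (Pearson r 0.73), with Ciart (0.67) and with Cry1 (0.52). Nr1d2 went with Tef (0.605) and Tef with Dbp (0.505), while Nr1d2 and Dbp had an r of −0.02. Npas2 ran against Per1 (−0.585). Without the 4 libraries doubted above, the r of Per2 with Per3 was 0.83 and that of Per1 with Per2 was 0.37, against 0.57 with them.

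The age label moved most of the 10 genes. With the old label 6 of them fell in both genotypes, namely both nuclear receptors, both D-box factors, Per3 and Npas2, and Cry1 and Ciart rose in both. In knock-in libraries 9 of 10 passed the test (3 higher, 6 lower), where 60.1% of all genes did (27.9% higher, 32.2% lower), and in wild-type libraries likewise 9 (2 higher, 7 lower), where 61.1% did (28.1% higher, 33.0% lower). The share of members called is thus read against a contrast in which most genes moved. Their median change was −0.68 (log2) in knock-in and −0.89 in wild-type libraries, against −0.05 and −0.08 over all genes tested. All 15 IFN-γ response genes rose with the same label, with a median change of 4.08 in knock-in and 3.93 in wild-type libraries, and so moved with it alongside the clock genes.

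Among the repressors of Arntl, Nr1d1 ran from 0.933 to 2.52 CPM with a median of 1.52 in the 36 libraries labelled old, against 2.03 to 7.41 CPM with a median of 3.65 in the 27 labelled young. Its change was −1.12 ± 0.11 (log2, SE) in knock-in and −1.42 ± 0.10 in wild-type libraries, with adjusted p of 3.4e-13 and 2.4e-17 (edgeR's quasi-likelihood test here and below). Nr1d2 ran from 12.2 to 29.7 CPM in old and from 25.4 to 58.6 CPM in young libraries, and changed by −0.98 ± 0.09 in knock-in and −1.16 ± 0.09 in wild-type. The ranges of both receptors overlapped at their ends. Exons of Nr1d1 overlap those of Thra on the opposite strand over 263 bases in a GRCm38 annotation, and it is not given in the sources used here whether counting used strand, so that reads of both cannot be told apart there. Thra changed by −0.08 ± 0.05 in knock-in and −0.23 ± 0.05 in wild-type libraries, of which the second passed (adjusted p 6.0e-05).

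The D-box factors, which drive output genes of the clock, separated the labels with no overlap. Dbp lay between 2.88 and 5.91 CPM in old libraries, against 6.21 to 15.5 CPM in young ones. Its change was −1.22 ± 0.09 in knock-in and −1.36 ± 0.08 in wild-type libraries. Tef lay between 21.0 and 32.7 CPM in old libraries, against 33.6 to 55.7 CPM in young ones, with changes of −0.72 ± 0.05 and −0.85 ± 0.05 in knock-in and wild-type. Dbp shares 539 exonic bases with Sphk2 and Tef 193 with a predicted gene, again on the opposite strands, and Sphk2 changed by 0.05 ± 0.05 in knock-in and 0.08 ± 0.05 in wild-type libraries, neither of which passed.

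The 3 period genes did not move together. Per3 fell by 0.64 ± 0.11 in knock-in and by 0.93 ± 0.11 in wild-type libraries, with medians of 4.20 CPM in old and 6.42 CPM in young libraries. Per1, with medians of 19.6 CPM in old and 23.6 CPM in young libraries, fell by 0.25 ± 0.06 in wild-type, and its change of −0.13 ± 0.06 in knock-in did not pass (adjusted p 0.054). Per2, with medians of 4.11 CPM in old and 3.71 CPM in young libraries, rose by 0.39 ± 0.17 in knock-in (adjusted p 0.046). Its change of 0.05 ± 0.16 in wild-type did not pass (adjusted p 0.81). The Per2 call in knock-in was lost in 17 of the 63 fits without 1 library, with adjusted p between 0.0504 and 0.0974 in those.

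Npas2 showed the widest change. Its median was 0.395 CPM in old libraries (0.0779 to 1.37) against 2.76 CPM in young ones (0.220 to 5.34), and it fell by 2.72 ± 0.19 in knock-in and by 2.49 ± 0.19 in wild-type. Apart from wild-type young IFN-γ female 1, at 0.220 CPM, the lowest young library had 1.22 CPM. The repressors Cry1 and Ciart went the other way. Cry1 lay between 11.1 and 17.5 CPM in old and between 8.03 and 11.5 CPM in young libraries, and rose by 0.52 ± 0.05 in knock-in and 0.49 ± 0.05 in wild-type. Ciart had medians of 1.52 CPM in old and 0.954 CPM in young libraries with wide overlap, and rose by 0.75 ± 0.19 in knock-in and 0.51 ± 0.18 in wild-type (adjusted p 4.6e-04 and 0.011). No member differed between genotypes in its age-label change (edgeR interaction, 0 of 10 called, 0 by DESeq2 and 0 at an unadjusted p under 0.05, where 0% of genes were called).

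**Figure D4:**
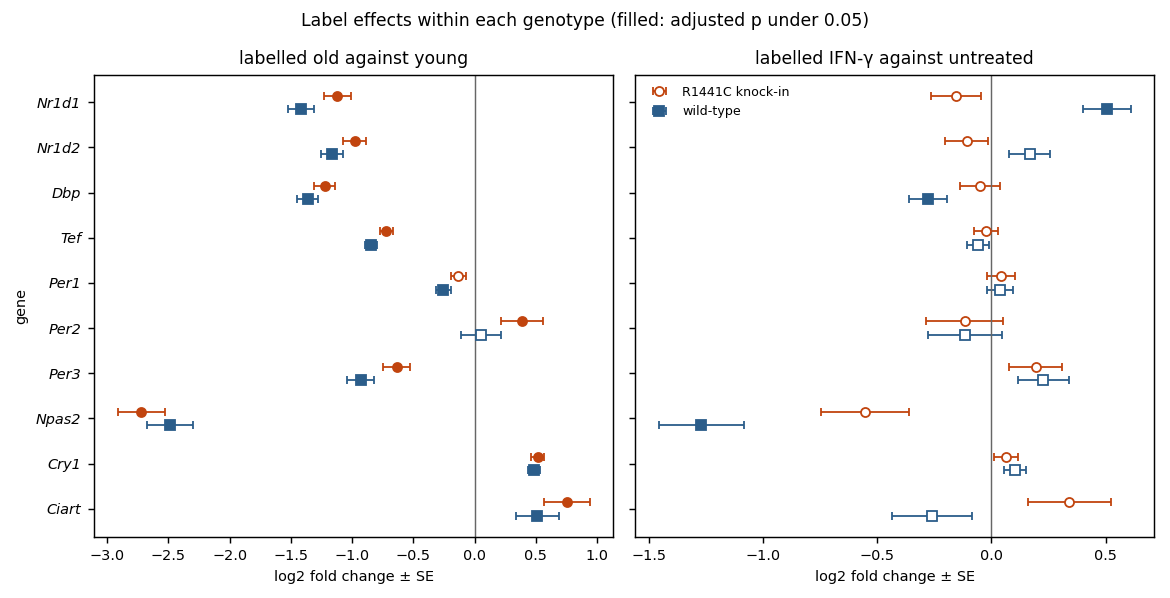
Log2 fold change ± SE (x axis) of each clock gene for the age label (left) and the treatment label (right), in knock-in (circles) above wild-type (squares), with filled symbols where the adjusted p is under 0.05. The age label gives changes down to −2.72 for Npas2 and up to 0.75 for Ciart, and the treatment label gives 3 filled symbols, all in wild-type.

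Other genes of the clock are given beside the 60.1% (knock-in) and 61.1% (wild-type) of all genes called with the age label. Of 17 tested, 3 rose and 11 fell in knock-in, and 3 rose and 12 fell in wild-type. Arntl, the partner of CLOCK and NPAS2, had medians of 5.44 CPM in old and 8.61 CPM in young libraries and changed by −0.68 ± 0.09 in knock-in and −0.71 ± 0.08 in wild-type. Its repressors Nr1d1 and Nr1d2 fell with it. Rora, an activator of Arntl, changed by −1.19 ± 0.09 in knock-in and −1.26 ± 0.085 in wild-type. Noct changed by −1.14 ± 0.10 in knock-in and −1.11 ± 0.10 in wild-type, and Bhlhe40, an E-box repressor, by −0.96 ± 0.08 in knock-in and −0.999 ± 0.08 in wild-type. Clock, Bhlhe41, Csnk1e, Btrc, Usp2 and Klf10 also fell in both genotypes and Cry2 in wild-type. Nfil3, a repressor at D-boxes, rose by 0.98 ± 0.08 in knock-in and 0.87 ± 0.07 in wild-type, with medians of 30.8 CPM in old and 16.1 CPM in young libraries, and Timeless and Csnk1d rose in both.

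Lists that bear on inputs to the clock are given as counts in the same contrast, to be read against the same shares. Of 10 glucocorticoid-response genes, 2 rose and 6 fell in each genotype, among them Zbtb16 by −1.98 ± 0.15 in knock-in and −2.02 ± 0.15 in wild-type, and Tsc22d3 by −0.78 ± 0.06 and −0.80 ± 0.06. Sult1a1 and Dusp1 also fell in both. Of 10 immediate-early genes 1 rose and 7 fell in knock-in, and 1 rose and 8 fell in wild-type, with Nr4a1 at −1.84 ± 0.18 and −2.01 ± 0.18. The cold-inducible pair split, Rbm3 rising by 0.53 ± 0.04 and Cirbp falling by 0.56 ± 0.08 in knock-in. Of the 12 mesothelial and fibroblast markers 8 fell in knock-in and 7 in wild-type, and their sums ran from 17.4 to 401 CPM in old and from 44.2 to 612 CPM in young libraries. Their part in the changes of the clock genes was not tested.

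With the treatment label Nr1d1 rose, and Npas2 and Dbp fell, in wild-type libraries. These are 3 of 10 genes where 31.3% of all genes were called (15.6% in each direction), so their number is at the background and is no result about the clock genes. In knock-in, where 7.98% of genes were called, 0 of 10 passed, also near the background, 1 had an unadjusted p under 0.05, and DESeq2 called 1. Every library of the IFN-γ label had at least 79.8 CPM summed over 10 B cell markers, against 23.8 to 104 CPM in untreated ones, and all 10 were higher with the label in each genotype, so markers of another cell type moved with this label. Of 8 resident peritoneal macrophage markers 7 were higher with it in wild-type and 0 in knock-in, and of 15 IFN-γ response genes 13 were higher in wild-type (median 0.85) and 0 in knock-in (median 0.01). Their part in the changes was not tested.

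In wild-type young libraries Nr1d1 had a median of 5.38 CPM (4.63 to 7.41) with the IFN-γ label, against 3.70 CPM (3.20 to 5.07) untreated. In wild-type old libraries its medians were 2.10 CPM (1.11 to 2.52) with the label and 1.55 CPM (0.933 to 1.90) untreated. The knock-in medians were 2.56 CPM (2.03 to 3.13) against 3.11 CPM (2.52 to 4.44) in young and 1.45 CPM (1.02 to 1.94) against 1.36 CPM (0.955 to 2.19) in old libraries, given with the label and untreated. The label change of Nr1d1 was −0.15 ± 0.11 in knock-in, which did not pass (adjusted p 0.46), and 0.50 ± 0.11 in wild-type (adjusted p 2.1e-04). These changes differed by −0.66 ± 0.15 (knock-in minus wild-type, adjusted p 0.0043, interaction), where 12.0% of genes were called, and Nr1d1 was the 1 member called. In the same interaction 10 of 15 IFN-γ response genes, 7 of 10 B cell markers, 6 of 7 mast cell and basophil markers and 2 of 8 resident macrophage markers were lower, with medians of −0.78, −1.61, −2.15 and −1.09 in that order, and their part was not tested. The Nr1d1 difference was −0.67 with near-identical libraries joined, with an adjusted p of 0.085.

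Npas2 fell with the label by 1.27 ± 0.19 in wild-type (adjusted p 6.6e-07), while its change of −0.55 ± 0.19 in knock-in did not pass (adjusted p 0.064). Wild-type young libraries had a median of 1.66 CPM (0.220 to 2.11) with the label and 3.66 CPM (2.52 to 4.74) untreated. Wild-type old libraries had 0.280 CPM (0.0779 to 0.436) with the label and 0.589 CPM (0.351 to 1.37) untreated. Knock-in young libraries had 2.76 CPM (1.32 to 3.87) with the label and 3.48 CPM (2.06 to 5.34) untreated, and knock-in old ones 0.338 CPM (0.230 to 0.532) and 0.641 CPM (0.417 to 0.904). The knock-in call was made without wild-type old IFN-γ female 2 and young IFN-γ female 1 (adjusted p 0.0067) and by DESeq2 (0.034). The difference between genotypes was 0.72 ± 0.27 and did not pass (adjusted p 0.065). Dbp had medians of 9.27 CPM (7.96 to 11.5) with the label and 12.7 CPM (10.3 to 15.3) untreated in wild-type young libraries, and 3.92 CPM (2.88 to 5.03) and 4.41 CPM (3.85 to 5.91) in wild-type old ones, which overlapped. It changed by −0.28 ± 0.08 in wild-type (adjusted p 0.0077), and by −0.05 ± 0.09 in knock-in, which did not pass. Scaled by library size alone, the Dbp change in wild-type was −0.17 with an adjusted p of 0.088, and with near-identical libraries joined its adjusted p was 0.075. Sphk2, whose exons overlap those of Dbp, changed by −0.23 ± 0.05 in wild-type (adjusted p 8.3e-05).

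Counts of other genes with the treatment label are read against 7.98% of all genes called in knock-in and 31.3% in wild-type. Of 17 other clock genes, Timeless alone passed in knock-in, at −0.40 ± 0.07. In wild-type 5 rose (among them Clock, Cry2, Usp2 and Klf10) and 4 fell (Bhlhe40, Csnk1d, Csnk1e and Wee1), with Bhlhe40 at −0.46 ± 0.08. With near-identical libraries joined, Clock, Cry2, Usp2, Klf10, Csnk1d and Wee1 lost their calls (adjusted p 0.058 to 0.22). Cry2 also lost its call without wild-type old IFN-γ female 2 and young IFN-γ female 1 (0.13, adjusted p 0.14). Csnk1d had the opposite sign, 0.02, when scaled by library size alone. Fkbp5, a glucocorticoid target, fell by 0.33 ± 0.09 in knock-in, and 1 of the 10 genes of its list rose and 4 fell in wild-type. Egr3, an immediate-early factor, rose by 2.23 ± 0.27 in wild-type, where 4 of its list of 10 rose and 3 fell.

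Knock-in libraries had less Nr1d1 than wild-type ones on average, though not in every stratum. In untreated old females its change was 0.01 ± 0.18 and in untreated young males 0.01 ± 0.23 (log2, SE). Averaged over the 8 strata of sex, age label and treatment label, Nr1d1 was lower by 0.54 (log2, −0.54 ± 0.08, adjusted p 2.2e-05) and Nr1d2 was lower at −0.27 ± 0.07 (adjusted p 0.026), 2 of the 10 genes where 1.16% of all genes were called. The Nr1d2 call was lost with near-identical libraries joined (adjusted p 0.54), and without any 1 of knock-in young IFN-γ females 1 and 2, knock-in old untreated male 5, wild-type young untreated female 4 or wild-type young untreated male 5 (adjusted p 0.053 to 0.079). The other 8 did not pass, with Npas2 at 0.35 ± 0.13 (adjusted p 0.16), Dbp at −0.15 ± 0.06 (0.18) and Tef at −0.11 ± 0.04 (0.12). Thra, whose exons overlap those of Nr1d1, also fell, at −0.14 ± 0.04 (adjusted p 0.038).

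The lower Nr1d1 was seen in every stratum of the IFN-γ label, per library as follows. Young IFN-γ females had 2.03 and 2.56 CPM in knock-in, against 7.41, 4.89 and 6.06 CPM in wild-type. Males with the young and IFN-γ labels had 2.39, 2.95 and 3.13 CPM in knock-in, against 4.63, 4.95, 5.55, 5.20 and 5.88 CPM in wild-type. In neither pair did the genotypes overlap, and the share of all genes for which this holds with so few libraries is not given here. Among these males, knock-in 3 and 4 form a near-identical set, as do wild-type 1, 2 and 3 and wild-type 4 and 5. They are therefore not independent. Old IFN-γ females had 1.03, 1.42, 1.50, 1.29 and 1.52 CPM in knock-in, against 1.11, 2.52, 2.07, 2.13 and 2.35 CPM in wild-type. Old IFN-γ males had 1.48, 1.20, 1.49, 1.94 and 1.02 CPM in knock-in, against 2.09, 2.10, 1.98, 2.39 and 2.01 CPM in wild-type. Among these only wild-type old IFN-γ female 1 fell into the knock-in range. Untreated young males had 3.07, 4.44 and 3.16 CPM in knock-in and 3.74, 3.20 and 3.65 CPM in wild-type, which overlapped. Mean Nr1d1 in untreated old females was 1.62 CPM in knock-in and 1.60 CPM in wild-type. It was lower in knock-in in untreated young females (3.18 against 4.32 CPM) and untreated old males (1.05 against 1.39 CPM).

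Tested stratum by stratum, Nr1d1 passed in young IFN-γ females, at −1.41 ± 0.27 (adjusted p 0.0018), where 3.79% of genes were called. In that stratum 11 of 15 IFN-γ response genes were lower too (median −1.70). Of 8 resident macrophage markers 1 was lower and 7 had an unadjusted p under 0.05 (median −2.04), and of 10 B cell markers 0 passed the adjusted test and 7 had an unadjusted p under 0.05 (median −2.04). Their part in the Nr1d1 change was not tested. Nr1d1 did not pass in young IFN-γ males (−0.89 ± 0.21, adjusted p 0.17, 0.0181% of genes called), old IFN-γ females (−0.59 ± 0.18, 0.052, 4.48%) or old IFN-γ males (−0.57 ± 0.18, 0.053, 5.92%), although DESeq2 called all 3, with adjusted p of 0.016, 0.023 and 0.026. Untreated strata gave −0.44 ± 0.21 in young females, 0.01 ± 0.18 in old females, 0.01 ± 0.23 in young males and −0.41 ± 0.24 in old males, none of which passed. The call in young IFN-γ females rested on 2 knock-in libraries, and without the first of them the adjusted p was 0.17. Leaving out any 1 library kept the adjusted p of the mean at or below 2.9e-04.

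**Figure D5:**
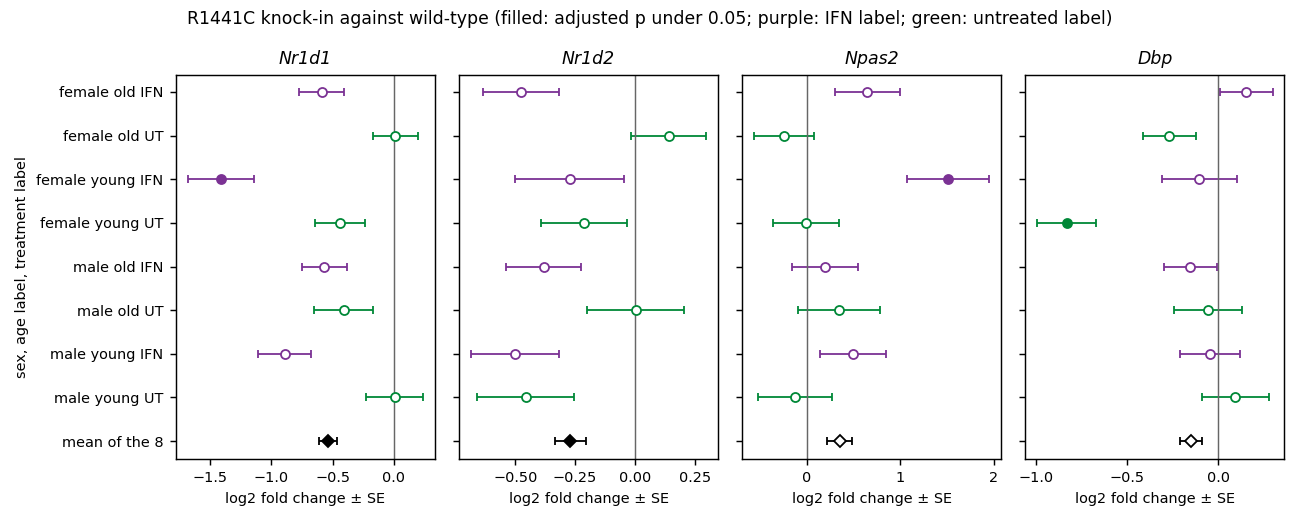
Log2 fold change ± SE (x axis) of Nr1d1, Nr1d2, Npas2 and Dbp, knock-in against wild-type, in 8 strata of sex, age label and treatment label (IFN-γ purple, untreated green) and as their mean (black), with filled symbols where the adjusted p is under 0.05. All 4 IFN-γ strata of Nr1d1 lie between −0.57 and −1.41, and Dbp is filled in young untreated females.

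Npas2 and Dbp each passed in 1 stratum. In young IFN-γ females Npas2 had 3.87 and 2.55 CPM in knock-in, against 0.220, 1.86 and 1.29 CPM in wild-type, a change of 1.51 ± 0.44 (adjusted p 0.040). Without wild-type old IFN-γ female 2 and young IFN-γ female 1 it was 0.98 and did not pass (adjusted p 0.14), nor did it without knock-in young IFN-γ female 1 (1.20, adjusted p 0.41) or 2 (1.78, 0.078). In young untreated females Dbp had 8.04, 8.88, 6.21, 6.72 and 8.36 CPM in knock-in, against 13.7, 11.9 and 15.3 CPM in wild-type. Its change there was −0.83 ± 0.16 (adjusted p 0.013), where 0.312% of genes were called. Its adjusted p was 0.31 without wild-type young untreated female 1 and 0.054 without knock-in young untreated female 3. No member passed in old untreated females or old untreated males (0.00452% of genes called in each) or in young untreated males (0%), and 2, 0 and 1 members had an unadjusted p under 0.05 in these strata. DESeq2 called Per3 in old untreated females, at 0.68 with an adjusted p of 0.046, and no member in the other two. The genotype change differed between females and males for no member (interaction, 0 of 10 by edgeR, by DESeq2 and at an unadjusted p under 0.05, where 0.00452% of genes were called).

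Correlations of Arntl with the members within groups are given as descriptions, because the members were chosen for their spread there and near-identical libraries are not independent. With group means removed, over 63 libraries, Pearson's r of Arntl with Nr1d1 was 0.14 and with Nr1d2 −0.30, and Spearman's rho was 0.01 and −0.26. With Npas2, r was −0.60 and rho −0.37. Without wild-type old IFN-γ female 2 and young IFN-γ female 1, the 2 libraries farthest in Arntl, r was −0.40 with Npas2, −0.325 with Nr1d2 and 0.0014 with Nr1d1. Without all 4 doubted libraries r with Npas2 was −0.27, and r with Nr1d1, Per1, Per2 and Per3 changed sign. In the 33 libraries of the IFN-γ label, r of Arntl with Npas2 was −0.83 (rho −0.69) and with Per1 0.76 (rho 0.60), and in the 30 untreated libraries r was 0.20 with Npas2 and −0.48 with Per1. Without the same 2 libraries the r values with the IFN-γ label were −0.70 and 0.58. In the 36 old libraries r with Ciart was −0.05 and with Per2 0.11, and in the 27 young libraries 0.71 with Ciart and 0.69 with Per2. Whether r differs between labels was not tested.

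Likeness within groups was taken as Pearson's r of log2 CPM with group means removed, for 3 members. Over 11141 candidates with a mean of at least 1 CPM, those with the highest Pearson r with Nr1d1 over 63 libraries were Emilin2 (0.72), Nfic (0.72), Tob2 (0.70), Chst12 (0.70) and Plcg2 (0.69). For Per1 they were Abca7 (0.81), Mef2d (0.81), Mark2 (0.79), Zc3h12a (0.78) and Spred3 (0.78), and for Npas2 they were Mfge8 (0.84), Dlg3 (0.82), Cd200 (0.81), Cdk18 (0.81) and Mamdc2 (0.80). These libraries share depth scaling, near-identical sets and the 4 doubted libraries. Without those 4, r with Nr1d1 was 0.75 for Emilin2 and still first, r with Per1 was 0.58 for Spred3, which then ranked 108th, and r with Npas2 was 0.68 for Mfge8.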

How the data were processed

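The deposited files hold 1 table of raw read counts per gene and 1 of FPKM, which the authors derived from the same counts. The submitters' processing notes name STAR 2.7.9a, DESeq2 1.40.2 and GRCm39, while which counter, annotation or strand option was used is not given there. Symbols came from a gene name table that matched 52073 of 56748 Ensembl identifiers.

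Counts were fitted in R 4.3.3 with edgeR 4.0.16 (quasi-likelihood test, TMM factors, filterByExpr, 1 mean for each of 16 groups, 47 residual degrees of freedom), and label effects were contrasts averaged over strata. P-values were adjusted by Benjamini-Hochberg over all 22147 genes with a threshold of 0.05. Log2 CPM used a prior count of 2. On simulated counts, 81.5% of 200 genes changed 2-fold were called in knock-in against wild-type young untreated females, with 4 false calls. In the wild-type treatment-label contrast 88% of 100 genes changed 1.5-fold and 99% of 100 changed 2-fold were called. The simulated libraries were independent, with no near-identical sets and no doubted libraries, so these figures need not hold for the data. In the data, the contrast in young untreated females called 69 genes. It called 1 to 259 without single libraries and 0 with near-identical libraries joined.

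The members and gene lists were chosen with earlier results of these data known, so the lists are descriptions. Every member is named, and other genes are named from those lists or as the 5 with the highest r with a member. Alternatives were DESeq2 1.42.0, other size factors, no filter, libraries left out, near-identical libraries joined and the replicate number as a block. Within-group correlations are printed without p-values, because the members were chosen for their spread within groups.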

Additional observations from a re-analysis of the deposited data

Results flagged for a closer look

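Of 80 groups of a gene with 4 to 10 libraries, 8 held a library whose gap to the nearest, divided by the range of the group, was above Dixon's 95% value, which about 1 in 20 groups exceed by chance. The genes were chosen because they differ within groups, so these values are a description and the number of such groups is not read against chance. Wild-type old IFN-γ female 1 was low in Nr1d1 (ratio 0.756), at 1.11 CPM against 2.07 to 2.52 CPM in the others. Wild-type old IFN-γ female 2 was high in Per1 (0.722), at 34.2 CPM against 19.0 to 22.4 CPM. Knock-in old IFN-γ male 1 was low in Tef (0.762), at 21.0 CPM against 25.9 to 27.7 CPM, and male 2 was high in Per3 (0.8), at 4.31 CPM against 3.34 to 3.52 CPM. Knock-in young untreated female 4 was high in Cry1 (0.806), at 10.5 CPM against 9.03 to 9.30 CPM. Wild-type young IFN-γ male 1 was low in Per2 (0.733), at 3.12 CPM against 3.61 to 3.80 CPM, and male 3 was low in Ciart (0.793), at 0.607 CPM against 0.954 to 1.07 CPM. Wild-type old untreated female 1 was high in Ciart (0.753), at 2.56 CPM against 1.16 to 1.41 CPM.

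The treatment-label change of Nr1d1 differed between knock-in and wild-type by −0.66 (log2, adjusted p 0.0043, edgeR). This interaction called 12.0% of all genes and 1 of the 10 members, so the number of members called is near the background. The Nr1d1 call was lost with near-identical libraries joined, where all genes called went from 2666 to 46.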

How the results depend on the processing

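The 39 member changes reported include some that were not called. These are all 10 with the treatment label in knock-in, Per2 with the age label in wild-type and Per1 with it in knock-in. Only the others had a call to lose. All 39 kept their direction, and stayed called or not called, with RLE factors and without knock-in old IFN-γ females 4 and 5. With DESeq2 38 did, with library size only 34 and with near-identical libraries joined 33, where 6 lost their call. Of 100 calls of other clock, glucocorticoid, immediate-early and cold-inducible genes, 71 were kept with near-identical libraries joined and 29 were lost. Scaled by library size only, Tef with the treatment label in knock-in had the opposite sign (0.011), as had Per2 with the age label in wild-type (−0.049) and Csnk1d with the treatment label in wild-type (0.025), and none of these 3 passed. Single libraries left out gave −0.0475 to 0.0291 for this Tef change, −0.0244 to 0.15 for this Per2 change and −0.10 to 0.0088 for Dbp with the treatment label in knock-in. Without all 4 doubted libraries r with Arntl was −0.057 for Nr1d1, −0.043 for Per1, −0.080 for Per2 and −0.115 for Per3. The causes were not tested.

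Counts of members called moved as follows. In young untreated females 1 was called, against 2 without the 4 libraries and 0 with libraries joined (0 to 2 without single libraries). In young IFN-γ females 2 were called, against 1 with no filter, without the wild-type pair, without all 4 or with libraries joined (0 to 2). In old untreated females 0 were called, against 1 with DESeq2 or without the 4 (0 to 2). In old IFN-γ females 0 were called, against 2 with DESeq2 and 1 with RLE factors, library size only, or without the knock-in pair or all 4 (0 to 2). In young IFN-γ males 0 were called, against 1 with DESeq2. In old IFN-γ males 0 were called, against 1 with DESeq2, RLE factors, library size only, or without the wild-type pair or all 4 (0 to 1). The genotype mean gave 2, against 1 with libraries joined (1 to 2). The treatment label gave 3 in wild-type, against 5 with library size only, and 0 in knock-in, against 1 with DESeq2 or without the wild-type pair or all 4 (0 to 1). Its interaction with genotype gave 1, against 2 without the 3 knock-in old untreated males or all 4, and 0 with libraries joined (1 to 2). The background, all genes called, moved too, so these counts are not read as moves of the clock genes alone. In young untreated females it went from 69 to 177 without the 4 libraries. In old IFN-γ females it went from 992 to 1653 with DESeq2, 1058 with RLE factors and 912 with library size only. There it was 168 without the knock-in pair and 122 without all 4. With DESeq2 it went from 4 to 27 in young IFN-γ males and from 1311 to 2088 in old IFN-γ males. With libraries joined it went from 1311 to 3 in old IFN-γ males and from 992 to 1 in old IFN-γ females. The genotype mean went from 257 to 7, this interaction from 2666 to 46 and the age label in wild-type from 13521 to 11745. In old untreated females 1 gene was called, against 389 with DESeq2, 343 without the 4 libraries and 1 to 2518 without single libraries. The treatment label in wild-type called 6922 genes, against 6850 with library size only. In knock-in the label called 1768, against 2084 with DESeq2, 2719 without the wild-type pair and 2739 without all 4. Its interaction with genotype called 1485 without the 3 knock-in old untreated males and 2774 without all 4.

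Nothing in the labels says what a replicate number marks. Library numbers used throughout are those of the sample descriptions, and the sample titles number some libraries differently. The median correlation of same-numbered deviations was 0.178 across treatment labels, 0.362 across age labels and 0.05 across genotypes. For other numbers it was −0.091, −0.121 and −0.022, and 17, 19 and 12 of 26 same-numbered pairs were over 0.1. Many same-numbered libraries thus shared deviations across treatment and age labels, and the main fit has no term for this. With the replicate number as a block, 5 of the 39 member changes, not all of which were called, lost their call. Members called are given with all genes called of 22147. They were 0 in young untreated females (4 genes), 1 in young IFN-γ females (223 genes) and 1 in the genotype mean (11 genes). With the treatment label in wild-type 2 were called (6624 genes), and with the age label in knock-in 8 (11866 genes). Nr1d1 kept its call in the genotype mean. Joining libraries only where they differed by less than the sampling noise gave no set, since the lowest ratio was 2.59, so sets were joined by a rule chosen after seeing the data. Npas2, at as few as 8 reads, is the member most limited by depth.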
